A study of Homo sapiens with 8 samples.

Results

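The genes described here encode the proteins that recognise splice sites and assemble the early spliceosome: 12 SR proteins, 26 hnRNP proteins, 9 subunits of the SF3A and SF3B complexes and 12 snRNP proteins. They were taken by symbol, as SRSF followed by a number or a name beginning with HNRNP, SF3A, SF3B or SNRP. Of 26443 genes with values, 65 matched. 5 pseudogenes and the antisense gene HNRNPU-AS1 were dropped, which left 59 genes. 52 of them had a mean of at least 1 FPKM (fragments per kilobase, corrected for sequencing depth, so a level that can be set beside other genes) and were tested.

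The cells were C4-2B, an established line of castration-resistant prostate cancer that descends from LNCaP, grown for 7 days under 4 conditions with 2 libraries each. The groups were DMSO (vehicle), ENZ at 10 uM, EPZ6438 at 1 uM (called EPZ below), and both agents together (Combination), for which no separate doses are given. ENZ usually stands for enzalutamide, an antiandrogen, and EPZ6438 is tazemetostat, which inhibits the histone methyltransferase EZH2. All groups are from this single line, and because the labels do not say whether libraries of a group came from separate cultures, p-values reflect only how these libraries varied, and that variation may be technical.

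Splicing removes introns from the primary transcript. The U1 and U2 snRNPs mark the 5′ splice site and the branch point. Each is built on a small RNA held by a ring of Sm proteins, which the SMN complex loads, and SF3A with SF3B anchors the U2 snRNP at the branch point. SR proteins bind exons and mostly promote their inclusion, while hnRNP proteins coat the nascent transcript and often oppose it. In prostate cancer, SRSF1 and HNRNPA1 have been linked to the splicing of androgen receptor variants that lack the ligand-binding domain. Many SR and hnRNP genes limit their own output by making unproductive isoforms, which FPKM summed over a gene do not separate from coding ones.

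Most of these genes were lower in the treated cells, and for most the fall was largest in Combination. Against DMSO, 45 of the 52 tested genes fell in Combination and 2 rose, with a median log2 change of -1.02, where log2 changes are on the log2(FPKM + 1) scale throughout and the test is limma's at an adjusted p under 0.05. Of all 11874 tested genes, 47.4% were called lower and 33.3% higher, and their median was -0.15. In EPZ, 40 fell and 1 rose (median -0.39), where 32.4% of all tested genes fell, 23.4% rose and the median was -0.05. In ENZ, 32 fell and 2 rose (median -0.22), against 28.8% and 27.9% of all tested genes and a median near 0 (0.0049).

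The 3 comparisons share the same DMSO libraries. High genes fell more often in these data, and the splicing-factor genes are high, at a median of 46.9 FPKM against 9.49 for all tested genes. Among the 8223 genes that averaged 5 FPKM or more, 58.2% fell and 26.1% rose in Combination (median -0.34). In that range 37.5% fell in ENZ and 40.0% in EPZ. Counted by libraries that do not overlap, both Combination values lay below both DMSO values for 45 genes and above for 5 (background 52.7% and 38.2%). For EPZ the counts were 48 below and 1 above (46.0% and 36.1%), and for ENZ 40 below and 7 above (38.4% and 38.7%). Without the first DMSO library the ENZ counts at the adjusted p were 20 lower and 1 higher.

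Scaling bears on these counts. With median-of-ratios scaling, which brings the median of all tested genes in Combination from -0.15 to 0.0024, 44 splicing-factor genes fell and 6 rose, and their median was -0.85 in place of -1.02. With quantile normalization 40 fell and 6 rose, with a median of -0.41. In EPZ the median was -0.34 and -0.23 under the 2 scalings. In ENZ it was -0.23 with median-of-ratios scaling and -0.05 with quantile normalization, which gave 8 higher and 9 lower. Of all tested genes, quantile normalization called 24.8% lower and 22.8% higher in ENZ (median -0.02). At that setting falls in ENZ were thus not more frequent among the splicing-factor genes than among all tested genes. With median-of-ratios scaling 34 fell and 2 rose in ENZ, against 30.3% and 26.9% of all tested genes. Among all tested genes, 41.3% of the calls in Combination against DMSO were higher as deposited and 48.2% with quantile normalization, and median-of-ratios scaling gave 4768 higher and 4765 lower.

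**Figure D1:**
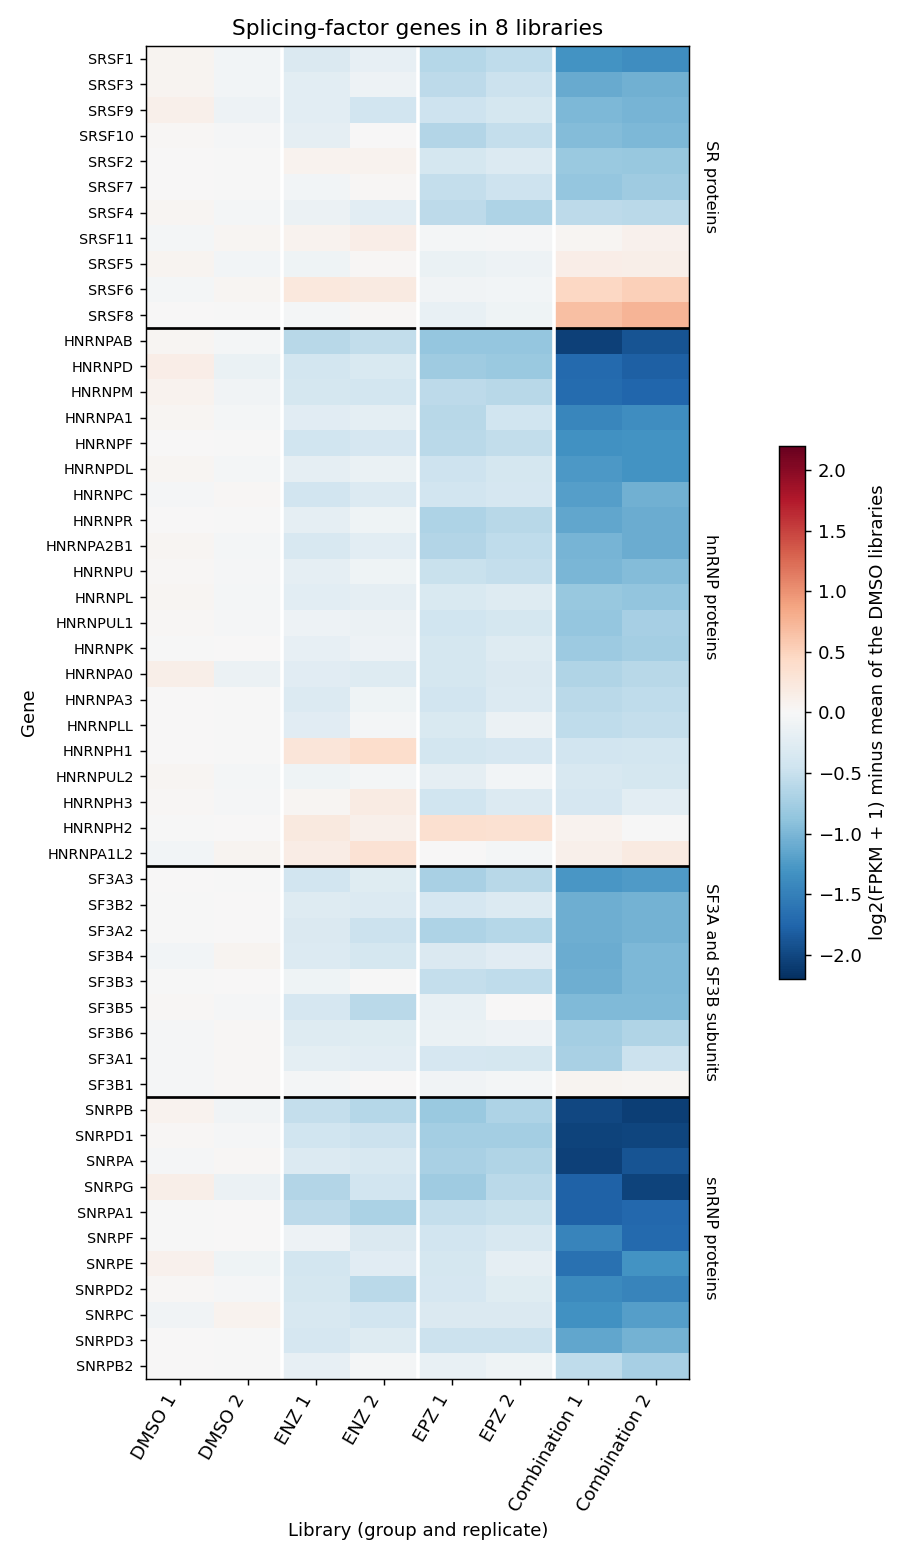
log2(FPKM + 1) of the 52 tested splicing-factor genes in each of the 8 libraries (columns), minus the mean of the 2 DMSO libraries, with blue for lower and red for higher. Genes are grouped by role and, within a role, ordered by their change in Combination. The 2 Combination columns are the bluest for most genes, while SRSF6 and SRSF8 are red there.

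Measured as a share of the summed FPKM of a library, the splicing-factor genes took 1.22% and 1.18% in DMSO, 1.12% and 1.16% with ENZ, 0.943% and 0.958% with EPZ, and 0.864% and 0.853% in Combination. Both Combination libraries lay below all others. The roles did not move alike. The snRNP proteins went from 0.207% and 0.201% in DMSO to 0.0938% and 0.0901% in Combination, and the hnRNP proteins from 0.591% and 0.564% to 0.387% and 0.380%. The SR proteins took 0.230% and 0.220% in DMSO and 0.231% and 0.228% in Combination, so their share overlapped between these groups, whereas in EPZ it was 0.188% and 0.190%. SF3A and SF3B went from 0.191% and 0.197% to 0.152% and 0.154%. These shares compare a role with the rest of the same library. Fewer cells of a kind and less RNA per cell cannot be told apart in bulk libraries.

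**Figure D2:**
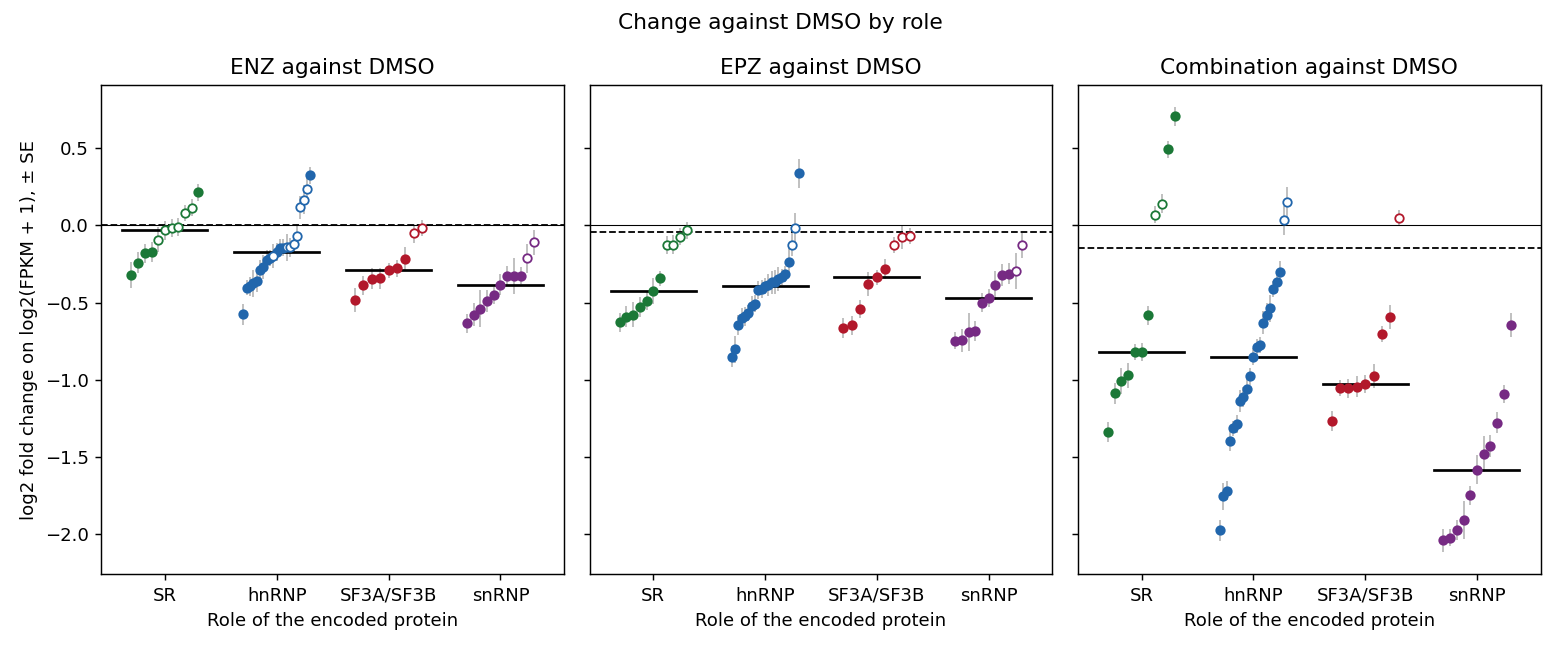
log2 change of each tested gene against DMSO, on the log2(FPKM + 1) scale, in ENZ, EPZ and Combination (panels), by role. Points are genes with bars of ± 1 SE, filled where the adjusted p is under 0.05 and open otherwise. The solid line is the median of the role and the dashed line the median of all tested genes. In Combination the snRNP median is -1.58 and the SR median -0.82, while 2 SR genes lie above 0 with filled points.

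Promoter sequences are shown for 5 genes that fell, held or rose, chosen after their values were seen among those whose stretch holds no annotated exon. They come from RefSeq (GRCh38.p14), each as the 120 bases just before the most upstream annotated start, 5′ to 3′ on the gene's strand. SNRPG and HNRNPD fell in every treated group, SF3B1 did not pass in any comparison, and SRSF6 and SRSF8 rose in Combination. Capitals mark the matches to 4 motifs searched on both strands: the E-box CACGTG, the E2F motifs TTTCCCGC and TTTGGCGC, the ETS motif CCGGAAG, and the NRF1 motif GCATGCGC. SNRPG is at chr2:70293459-70293578 on the minus strand, with an ETS match read on the opposite strand. HNRNPD is at chr4:82373992-82374111, minus strand, with an E-box. SF3B1 is at chr2:197435094-197435213, minus strand, with an E-box and an E2F match. SRSF6 is at chr20:43457776-43457895 and SRSF8 at chr11:95066757-95066876, both on the plus strand and without a match.
SNRPG: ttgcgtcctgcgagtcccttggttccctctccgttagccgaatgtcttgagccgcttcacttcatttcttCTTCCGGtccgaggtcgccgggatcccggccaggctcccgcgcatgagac
HNRNPD: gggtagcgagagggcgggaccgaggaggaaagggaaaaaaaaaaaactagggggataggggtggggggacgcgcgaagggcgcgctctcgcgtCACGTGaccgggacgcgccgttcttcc
SF3B1: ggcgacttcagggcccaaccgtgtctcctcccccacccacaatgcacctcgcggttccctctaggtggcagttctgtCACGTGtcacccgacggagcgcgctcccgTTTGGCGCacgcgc
SRSF6: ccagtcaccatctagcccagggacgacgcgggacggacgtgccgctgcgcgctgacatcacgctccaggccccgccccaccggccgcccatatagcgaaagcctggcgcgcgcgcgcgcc
SRSF8: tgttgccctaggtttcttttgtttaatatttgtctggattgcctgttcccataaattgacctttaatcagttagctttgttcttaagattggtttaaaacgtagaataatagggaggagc

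Across the whole promoter windows (250 bases before to 50 after a start), 54 of the 59 genes matched with 77 windows, some of which overlap because a gene has several starts. The ETS motif stood in 20 of the 77 (26.0%), against 10.3% of all 35116 promoters, the E-box in 10 (13.0%, against 7.26%), an E2F motif in 6 (7.79%, against 2.27%) and the NRF1 motif in 5 (6.49%, against 3.05%). 48 of the 52 tested genes matched, with 68 windows, of which 29.4% held the ETS motif, 14.7% the E-box, 8.82% an E2F motif and 5.88% the NRF1 motif. Over the promoters of all tested genes these shares were 17.9%, 9.77%, 3.57% and 5.06%. A match is a run of letters and no evidence of binding, and a window without one says only that these letters are not in it.

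The snRNP proteins fell furthest. All 11 tested genes fell in Combination (median -1.58), 9 fell in EPZ (median -0.47) and 9 in ENZ (median -0.38), and none rose. The shares that fell were 100%, 81.8% and 81.8%, against 58.2%, 40.0% and 37.5% of all genes at 5 FPKM or more. With quantile normalization the counts were 11 (median -1.29), 6 and 5, again with none higher, where 40.5%, 25.8% and 24.8% of all tested genes were lower. The calls lost there were those of SNRPA, SNRPC, SNRPD3 and SNRPE in ENZ and of SNRPC, SNRPD2 and SNRPF in EPZ. The 7 tested Sm ring genes all fell in Combination (median -1.58).

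SNRPB encodes Sm proteins B and B′ and lies at chr20:2461634-2470853 on the minus strand (GENCODE release 29, GRCh38). AL049650.1 overlaps SNRPB on the same strand and SNRPB has 1 named pseudogene, so its level is uncertain. SNRPB stood at 196 and 175 FPKM in DMSO, 129 and 119 with ENZ, 105 and 116 with EPZ, and 45.4 and 43.0 in Combination. The Combination libraries were far below all others, ENZ and EPZ lay between, and DMSO overlapped with no treated group. The log2 changes were -0.58 in ENZ (SE 0.075, adjusted p = 1.74e-04), -0.74 in EPZ (adjusted p = 3.71e-05) and -2.04 in Combination (adjusted p = 6.00e-09), the lowest of the 52 genes, and its Combination mean was 23.9% of the DMSO mean. SNRPD1, another Sm ring protein, had 41.8 and 40.1 FPKM in DMSO, 30.1 and 29.1 with ENZ, 24.0 and 23.9 with EPZ, and 9.27 and 9.38 in Combination. The 4 groups followed the order DMSO, ENZ, EPZ, Combination with no overlap between neighbours, and the Combination change was -2.02 (SE 0.055, adjusted p = 9.52e-10).

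SNRPA encodes a U1 snRNP protein that binds a stem-loop of the U1 RNA. Its levels were 43.5 and 45.3 FPKM in DMSO, 35.8 and 34.4 with ENZ, 26.8 and 27.8 with EPZ, and 10.0 and 11.1 in Combination, again in 4 separate steps. The Combination change was -1.97 (SE 0.065, adjusted p = 2.91e-09). An exon of C19orf54 overlaps it on the other strand, and since the counting is not stated to use strand, reads of the 2 genes cannot be told apart. SNRPA1 encodes a protein of the U2 snRNP. It stood at 25.9 in both DMSO libraries, 17.0 and 15.7 with ENZ, 17.8 and 18.2 with EPZ, and 6.86 and 7.16 in Combination. This gene had the largest fall of all the splicing-factor genes in ENZ, -0.63 (SE 0.062, adjusted p = 3.23e-05), and fell by 1.75 in Combination.

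Sm protein G, from SNRPG, went from 35.3 and 29.3 FPKM in DMSO to 20.1 and 23.7 with ENZ, 18.2 and 21.0 with EPZ, and 8.69 and 7.07 in Combination. ENZ and EPZ overlapped, and both Combination values were below them (-1.91 against DMSO, SE 0.122, adjusted p = 2.57e-07). SNRPG has 20 named pseudogenes that could share its reads, so its level is uncertain. SNRPD2, the second highest of the role, had 112 and 108 FPKM in DMSO, 83.5 and 73.1 with ENZ, 84.7 and 91.3 with EPZ, and 40.9 and 39.5 in Combination. Here too the single agents lay between the outer groups (-0.49 in ENZ, -0.32 in EPZ, -1.43 in Combination). QPCTL overlaps SNRPD2 on the other strand and SNRPD2 has 2 named pseudogenes, so its level is uncertain too.

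The remaining snRNP genes, added after their values were seen, covered a wide range in Combination. SNRPF was at -1.58, SNRPE at -1.48, SNRPC at -1.28, SNRPD3 at -1.09 and SNRPB2 at -0.64, and all passed. SNRPC has 18 named pseudogenes and SNRPE 9. Exons of CCDC38 overlap SNRPF on the other strand, and exons of GGT1 overlap SNRPD3 on the same strand. The levels of SNRPC, SNRPE, SNRPF and SNRPD3 are therefore uncertain too. SNRPB2, whose protein partners that of SNRPA1 in the U2 snRNP, moved least: 15.9 and 15.6 FPKM in DMSO, 13.8 and 15.2 with ENZ, 13.9 and 14.7 with EPZ, and 10.4 and 9.05 in Combination. It did not pass in ENZ (adjusted p = 0.251) or in EPZ (adjusted p = 0.183). SNRPF did not pass in ENZ (-0.21, adjusted p = 0.0766) and SNRPE did not pass in EPZ (-0.29, adjusted p = 0.0563). SNRPN, a paralog of SNRPB from an imprinted locus, was under the filter and was not tested, at 0.781 and 0.792 FPKM in DMSO, 0.287 and 0.276 with ENZ, 0.823 and 0.944 with EPZ, and 0.469 and 0.675 in Combination. It shares exons with SNURF.

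**Figure D3:**
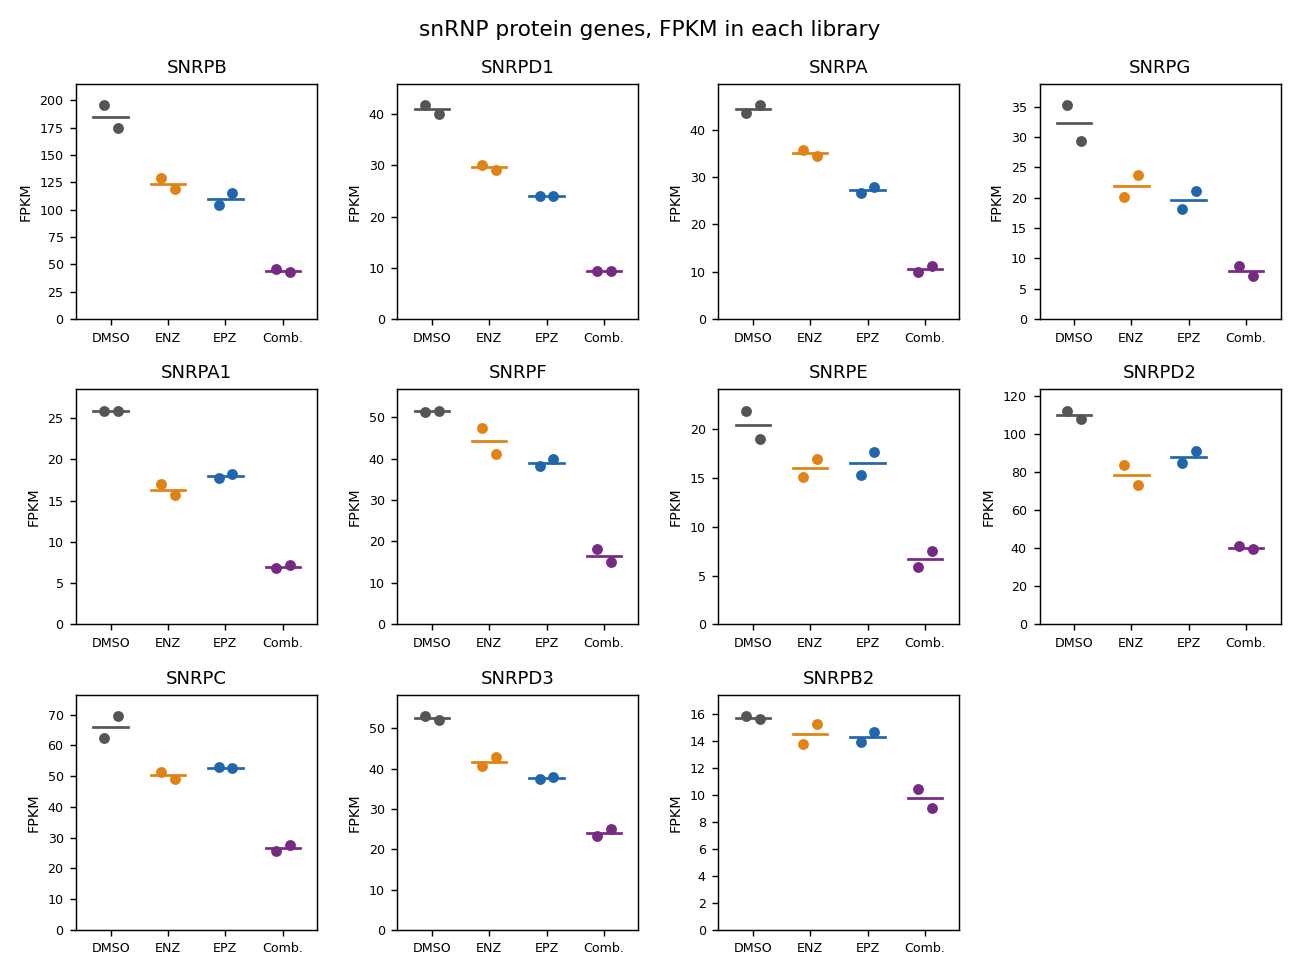
FPKM of the 11 tested snRNP protein genes in each library, with a point per library and a line at the group mean (n = 2), each panel on its own linear axis from 0. In every panel both Combination points lie below all 6 others, from SNRPB (45.4 and 43.0 against 105 or more) to SNRPB2 (10.4 and 9.05 against 13.8 or more).

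Of the 9 subunits of SF3A and SF3B, 8 fell in Combination (median -1.03), 6 in EPZ (median -0.34) and 7 in ENZ (median -0.29), and none rose. The shares that fell were 88.9%, 66.7% and 77.8%, against 58.2%, 40.0% and 37.5% of all genes at 5 FPKM or more. Under quantile normalization ENZ gave 2 lower and 1 higher (median -0.06), EPZ 4 lower (median -0.17), and Combination 6 lower and 1 higher (median -0.41). Of all tested genes, 24.8%, 25.8% and 40.5% were lower at that setting, so the ENZ count was not above that background. SF3B2, a large subunit that contacts RNA beside the branch point, had 126 and 128 FPKM in DMSO, 104 and 103 with ENZ, 97.6 and 103 with EPZ, and 59.8 and 61.3 in Combination. DMSO stood above and Combination below every single-agent library. The changes were -0.29 in ENZ, -0.34 in EPZ and -1.05 in Combination (SE 0.051, adjusted p = 3.35e-08), the first lost under quantile normalization (-0.05, adjusted p = 0.398). The small subunit SF3B5 stood at 107 and 104 FPKM in DMSO, 80.9 and 69.4 with ENZ, 94.4 and 106 with EPZ, and 53.0 and 53.1 in Combination. EPZ overlapped with DMSO (-0.08, adjusted p = 0.434), while ENZ (-0.49, adjusted p = 6.34e-04) and Combination (-0.98, adjusted p = 1.32e-06) lay below.

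SF3B1 was the member of its role that did not fall. It encodes the scaffold of SF3B that clamps the branch point helix and is mutated in several cancers, and it is described because it stood apart once the values were seen. Its levels were 51.6 and 53.2 FPKM in DMSO, 50.8 and 52.7 with ENZ, 49.4 and 50.6 with EPZ, and 54.4 and 53.9 in Combination. The whole range over 8 libraries was narrow and no comparison passed (Combination against DMSO 0.05, SE 0.052, adjusted p = 0.424). SF3B1 rose in Combination with median-of-ratios scaling (0.22, adjusted p = 0.00238) and with quantile normalization (0.65, adjusted p = 2.82e-06). Whether it passed, and by how much it changed, thus depended on the scaling. Under each setting it lay above the median of all tested genes (-0.15 as deposited, 0.0024 and -0.02). Within each library SF3B1 stood at 0.411 and 0.417 of the level of SF3B2 in DMSO and at 0.910 and 0.880 in Combination. This ratio is free of any single factor per library, though not of quantile normalization, and it shows unequal change of the 2 genes without saying which moved. All 3 SF3A genes fell in each group against DMSO, SF3A3 the most in Combination (-1.27). Under quantile normalization SF3A1 did not pass in any of them, and its ENZ call was also lost without any one DMSO, ENZ or EPZ library (adjusted p = 0.0535 to 0.165).

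The hnRNP genes mostly fell too. Of 21 tested genes, 19 fell in Combination (median -0.85) and none rose, 18 fell and 1 rose in EPZ (median -0.39), and 12 fell and 1 rose in ENZ (median -0.17). The shares that fell were 90.5%, 85.7% and 57.1%, against 58.2%, 40.0% and 37.5% of all genes at 5 FPKM or more. With quantile normalization ENZ gave 2 lower and 2 higher (median -0.04), EPZ 16 lower and none higher (median -0.23), and Combination 17 lower and 1 higher (median -0.33). Of all tested genes, 24.8%, 25.8% and 40.5% were lower and 22.8%, 23.6% and 37.8% higher at that setting. The ENZ counts there were not above these shares. The highest were HNRNPA2B1, which binds RNA through paired recognition domains and sorts some small RNAs, and HNRNPK, a KH-domain protein that prefers C-rich RNA. HNRNPA2B1 had 247 and 234 FPKM in DMSO, 189 and 205 with ENZ, 154 and 164 with EPZ, and 117 and 113 in Combination, a descending order without overlap (-0.29, -0.60 and -1.06 against DMSO). Under quantile normalization its ENZ change did not pass (adjusted p = 0.953). HNRNPK had 186 and 190, 166 and 173, 144 and 154, and 108 and 111 FPKM in the same order of groups, with smaller steps (-0.14 in ENZ at an adjusted p of 0.0425, -0.34 in EPZ and -0.77 in Combination). The ENZ change of HNRNPK turned to 0.07 under quantile normalization (adjusted p = 0.232), and it missed the threshold without either DMSO library (adjusted p = 0.113 and 0.191), the first ENZ library (0.123) or either Combination library (0.0591 and 0.0592).

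The deepest fall of the role was in HNRNPAB, a relative of HNRNPD that binds AU-rich and single-stranded nucleic acids (chr5:178204507-178211163, plus strand). Its levels were 90.0 and 84.5 FPKM in DMSO, 56.5 and 59.8 with ENZ, 47.6 and 48.2 with EPZ, and 20.2 and 22.7 in Combination. The 4 groups were separate, with Combination at 24.6% of DMSO (-1.98, SE 0.068, adjusted p = 3.70e-09) and ENZ at -0.58. PHYKPL overlaps it on the other strand, with the limit given for SNRPA. HNRNPD, or AUF1, which targets AU-rich mRNA for decay, went from 163 and 132 FPKM to 110 and 115 with ENZ, 84.3 and 82.7 with EPZ, and 43.9 and 41.5 in Combination (-0.38, -0.80 and -1.75). Its paralog HNRNPDL was lower in DMSO, at 53.0 and 50.4 FPKM, and reached 45.0 and 46.5 with ENZ, 37.6 and 39.4 with EPZ, and 21.1 and 20.2 in Combination. Both genes kept the groups apart, and HNRNPDL fell by 1.29 in Combination (SE 0.057, adjusted p = 2.00e-08). In ENZ the calls of both were lost under quantile normalization, HNRNPD at -0.12 and HNRNPDL turning to 0.03. Added after the values were seen, HNRNPM (-1.72), HNRNPA1 (-1.39) and HNRNPF (-1.32) also fell in Combination. HNRNPA1 has 74 named pseudogenes and is uncertain for that reason.

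HNRNPH1, which binds G-runs, was the hnRNP gene that rose in ENZ and fell in EPZ. It stood at 88.4 and 87.5 FPKM in DMSO, 106 and 115 with ENZ, 66.0 and 67.6 with EPZ, and 65.7 and 66.0 in Combination. ENZ was above and EPZ below DMSO, and Combination overlapped with EPZ. The changes were 0.32 in ENZ (SE 0.054, adjusted p = 8.03e-04), -0.39 in EPZ (adjusted p = 2.57e-04) and -0.41 in Combination (adjusted p = 5.65e-05), the last becoming a rise of 0.24 (adjusted p = 0.00535) under quantile normalization. Combination stood 0.74 below ENZ (log2 change -0.74, adjusted p = 1.55e-06) and differed from EPZ by -0.02 (adjusted p = 0.761), or by 0.46 under quantile normalization (adjusted p = 1.09e-04). HNRNPF, which binds the same G-rich elements, fell in all groups, so that HNRNPH1 stood at 0.465 and 0.467 of its level in DMSO, 0.764 and 0.784 with ENZ, and 0.879 and 0.871 in Combination.

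HNRNPH2, the X-linked member of the same subfamily, was the hnRNP gene that rose in EPZ, at a level close to the filter: 0.949 and 0.968 FPKM in DMSO, 1.28 and 1.11 with ENZ, 1.49 and 1.46 with EPZ, and 1.06 and 0.945 in Combination. Its change in EPZ was 0.34 (SE 0.094, adjusted p = 0.0124), it rests on an estimated 33 to 81 fragments per library, and it overlaps a readthrough gene with RPL36A. The call was lost when any DMSO or EPZ library was left out (adjusted p = 0.0507 to 0.0672) and under quantile normalization (adjusted p = 0.117), which also moved its Combination change from 0.03 to -0.28 (adjusted p = 0.0191). HNRNPCL1, HNRNPCL3, HNRNPCL4 and the readthrough HNRNPUL2-BSCL2 were listed at 0 in all 8 libraries. HNRNPCL2 and, among the SR genes, SRSF12 were under 0.03 FPKM in every library.

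The SR genes divided. Of 11 tested, 7 fell and 2 rose in Combination (median -0.82), 7 fell and none rose in EPZ (median -0.42), and 4 fell and 1 rose in ENZ (median -0.03). The shares that fell were 63.6%, 63.6% and 36.4%, against 58.2%, 40.0% and 37.5% of all genes at 5 FPKM or more. In Combination 18.2% of the SR genes rose, against 26.1% of those genes. The Combination and ENZ counts were thus near those of all genes at 5 FPKM or more, a set not matched to the levels of the SR genes. Quantile normalization turned the ENZ counts to 5 higher and 0 lower (median 0.11), and gave 6 lower and 4 higher in Combination (median -0.19). Median-of-ratios scaling gave 7 lower and 4 higher in Combination (median -0.65). SRSF9 was the highest, with 156 and 133 FPKM in DMSO, 123 and 108 with ENZ, 104 and 110 with EPZ, and 71.9 and 70.0 in Combination. ENZ and EPZ overlapped, below DMSO and above Combination (-0.32, -0.42 and -1.01 against DMSO). The ENZ call of SRSF9 was lost under quantile normalization (adjusted p = 0.517), without the first DMSO library (0.0867) and without the second ENZ library (0.0606). SRSF2, which binds exonic enhancers and is mutated in myeloid cancers, had 84.9 and 83.5 FPKM in DMSO, 89.1 in both ENZ libraries, 64.3 and 68.0 with EPZ, and 47.5 and 46.9 in Combination. ENZ was not below DMSO (0.08, SE 0.051, adjusted p = 0.203, and 0.33 with an adjusted p of 5.29e-04 under quantile normalization), whereas EPZ (-0.34) and Combination (-0.82, adjusted p = 2.16e-07) were.

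Further SR genes are described after their values were seen. SRSF1, the founding SR protein, went from 82.9 and 76.4 FPKM in DMSO to 63.9 and 70.4 with ENZ, 51.0 and 53.9 with EPZ, and 31.3 and 30.4 in Combination, the largest fall among SR genes (-1.34, SE 0.067, adjusted p = 4.38e-08). SRSF3, which also acts in mRNA export, fell by 1.09 in Combination, SRSF10 by 0.97 and SRSF7 by 0.82. SRSF4 differed in that Combination did not go below EPZ: it had 52.3 and 49.2 FPKM in DMSO, 46.1 and 43.1 with ENZ, 33.5 and 31.4 with EPZ, and 33.7 and 33.3 in Combination (0.05 against EPZ, adjusted p = 0.52). Under quantile normalization SRSF4 no longer differed from DMSO by a call in Combination (-0.0083, adjusted p = 0.901), and it was above EPZ under both other scalings (0.17 and 0.43). SRSF11, which carries an RS domain but is less studied, lay between 59.8 and 68.6 FPKM in every library, and no comparison passed as deposited. Under median-of-ratios scaling and quantile normalization SRSF11 rose in Combination against DMSO (0.25 and 0.71), against ENZ (0.14 and 0.38) and against EPZ (0.22 and 0.58), and under the latter also in ENZ (0.33).

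SRSF6 and SRSF8 rose in Combination. SRSF6, which regulates tau and other exons (chr20:43457928-43464247, plus strand), had 45.5 and 48.2 FPKM in DMSO, 55.3 and 53.7 with ENZ, 44.2 and 44.7 with EPZ, and 64.8 and 67.9 in Combination. Combination was above all others and ENZ above DMSO and EPZ. The changes were 0.21 in ENZ (SE 0.055, adjusted p = 0.00842), -0.07 in EPZ (adjusted p = 0.275) and 0.49 in Combination (adjusted p = 1.57e-05). The ENZ change missed the threshold without the first DMSO library (adjusted p = 0.0876).

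SRSF8, a retro-copy of SRSF2 (chr11:95067197-95071224, plus strand), had 29.4 and 28.7 FPKM in DMSO, 28.0 and 29.7 with ENZ, 25.8 and 27.2 with EPZ, and 46.7 and 49.3 in Combination. The first 3 groups lay close together and both Combination libraries stood above them. The Combination change was 0.71 (SE 0.060, adjusted p = 1.94e-06), with -0.01 in ENZ (adjusted p = 0.901) and -0.13 in EPZ (adjusted p = 0.0973). Because SRSF8 and SRSF2 are alike in sequence, some reads could have been assigned to either. Both genes, SRSF6 and SRSF8, rose in Combination under both other scalings as well (SRSF6 by 0.67 and 1.12, SRSF8 by 0.88 and 1.25).

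SRSF5, whose RNA responds quickly to growth signals and differentiation in other systems, had 67.8 and 62.2 FPKM in DMSO, 60.9 and 66.1 with ENZ, 58.7 and 60.2 with EPZ, and 71.8 and 71.5 in Combination. It did not pass against DMSO in Combination (0.14, SE 0.062, adjusted p = 0.0602), but rose there with median-of-ratios scaling (0.32, adjusted p = 7.47e-04) and quantile normalization (0.80, adjusted p = 2.49e-06). It also passed there with the compared groups alone in the fit (adjusted p = 0.0432), without the first DMSO library (0.0415) and without either ENZ library (0.0303 and 0.0305). Against EPZ it rose by 0.26 (adjusted p = 0.00336) and against ENZ by 0.17 (adjusted p = 0.0308), a call lost with the compared groups alone in the fit (adjusted p = 0.0693) and without the first ENZ library (0.13) or either Combination library (0.102 and 0.0905). Within each library SRSF6 stood at 0.549 and 0.631 of SRSF1 in DMSO and at 2.07 and 2.23 in Combination, and SRSF8 at 0.346 and 0.344 of SRSF2 in DMSO and 0.983 and 1.05 in Combination.

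**Figure D4:**
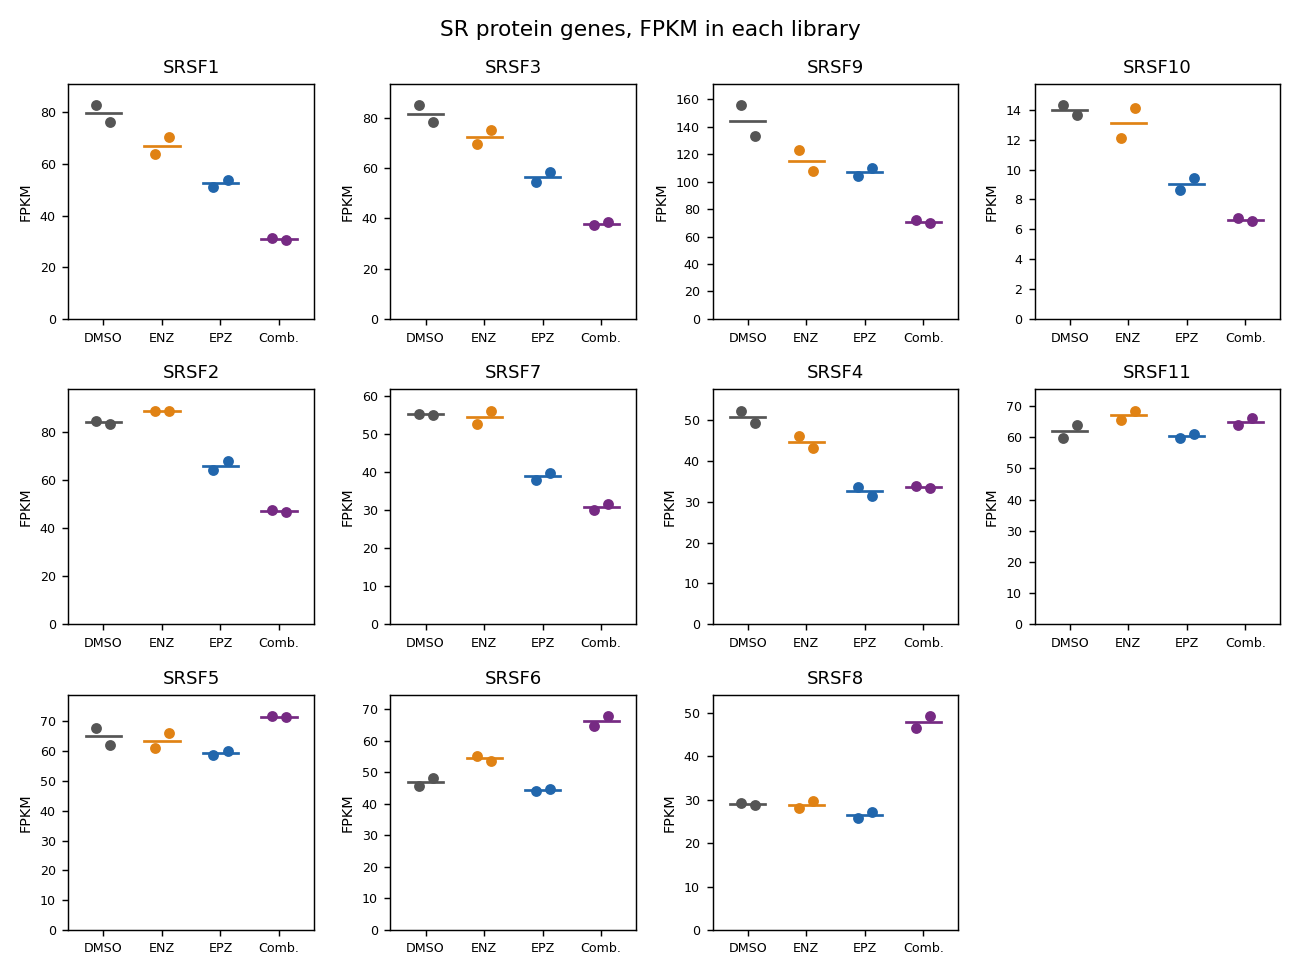
FPKM of the 11 tested SR protein genes in each library, with a point per library and a line at the group mean (n = 2), each panel on its own linear axis from 0. SRSF1, SRSF3 and SRSF9 are lowest in Combination, SRSF11 stays between 59.8 and 68.6, and SRSF6 and SRSF8 are highest in Combination.

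Set against each agent alone, Combination was lower for most of the genes. Against ENZ, 45 fell and 3 rose (median -0.77, or -0.58 and -0.42 with median-of-ratios scaling and quantile normalization), where 45.5% of all tested genes fell and 25.3% rose (median -0.15). Against EPZ, 43 fell and 3 rose (median -0.52), where 43.7% fell and 29.2% rose (median -0.11). SRSF5, SRSF6 and SRSF8 were the 3 genes that rose in both. The lowest changes against both agents were those of SNRPA (-1.64 against ENZ, -1.29 against EPZ), SNRPD1 (-1.57 and -1.27) and SNRPB (-1.46 and -1.30). Against EPZ the split depended on scaling: 38 lower and 8 higher with median-of-ratios scaling (median -0.41), and 28 lower and 9 higher with quantile normalization (median -0.23), where HNRNPA0 went from -0.28 to 0.17 (adjusted p = 0.0461). Of all tested genes, 37.3% fell and 35.7% rose against EPZ with median-of-ratios scaling, and 36.3% and 34.6% with quantile normalization. Among genes at 5 FPKM or more as deposited, 55.0% fell against EPZ and 56.0% against ENZ. Among all tested genes, the share of calls that were higher went from 35.7% to 51.2% against ENZ with median-of-ratios scaling.

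The interaction asks whether Combination departs from the sum of the single-agent changes on the log2 scale. It takes the doses in Combination to be those of the single agents, which the labels do not give. It passed as negative for 34 of the 52 genes and as positive for 3 (median -0.33), while 29.6% of all tested genes were lower and 9.99% higher (median -0.12). With median-of-ratios scaling 23 were lower and 5 higher (median -0.20), and with quantile normalization 20 and 6 (median -0.18). Among all tested genes the higher share of interaction calls went from 25.2% to 44.3% and 49.3%. All 11 snRNP genes were lower (median -0.68), 9 of them under either other scaling. As deposited, 14 of 21 hnRNP genes, 5 of 9 SF3A and SF3B genes and 4 of 11 SR genes were lower too (66.7%, 55.6% and 36.4%). Among all genes at 5 FPKM or more 39.6% were lower, so the SR share was not above that background. Under median-of-ratios scaling and quantile normalization the hnRNP count was 8 and 6, that of SF3A and SF3B 3 and 3, and that of the SR genes 3 and 2, with 4 and 5 SR genes higher. Of all tested genes, 20.7% and 21.2% were lower at these settings, and 16.5% and 20.7% higher. The counts of lower SR genes were near those shares.

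The smallest adjusted p-values were those of SNRPD1 (-0.82, SE 0.078, adjusted p = 5.01e-05), SNRPA (-0.96, SE 0.092, adjusted p = 5.08e-05), SRSF8 (0.84, SE 0.084, adjusted p = 6.49e-05) and HNRNPDL (-0.70, SE 0.081, adjusted p = 1.54e-04). For SNRPA the single-agent changes of -0.33 and -0.68 sum to -1.01, and the Combination change was -1.97. The 3 SF3A genes passed in neither direction, with 0.01 for SF3A1, -0.02 for SF3A2 and -0.26 for SF3A3 (adjusted p = 0.0526). HNRNPA2B1 (-0.17, adjusted p = 0.141) and SRSF9 (-0.26, adjusted p = 0.106), among the highest of their roles, did not pass. These p-values miss the threshold and do not show that the changes add up.

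**Figure D5:**
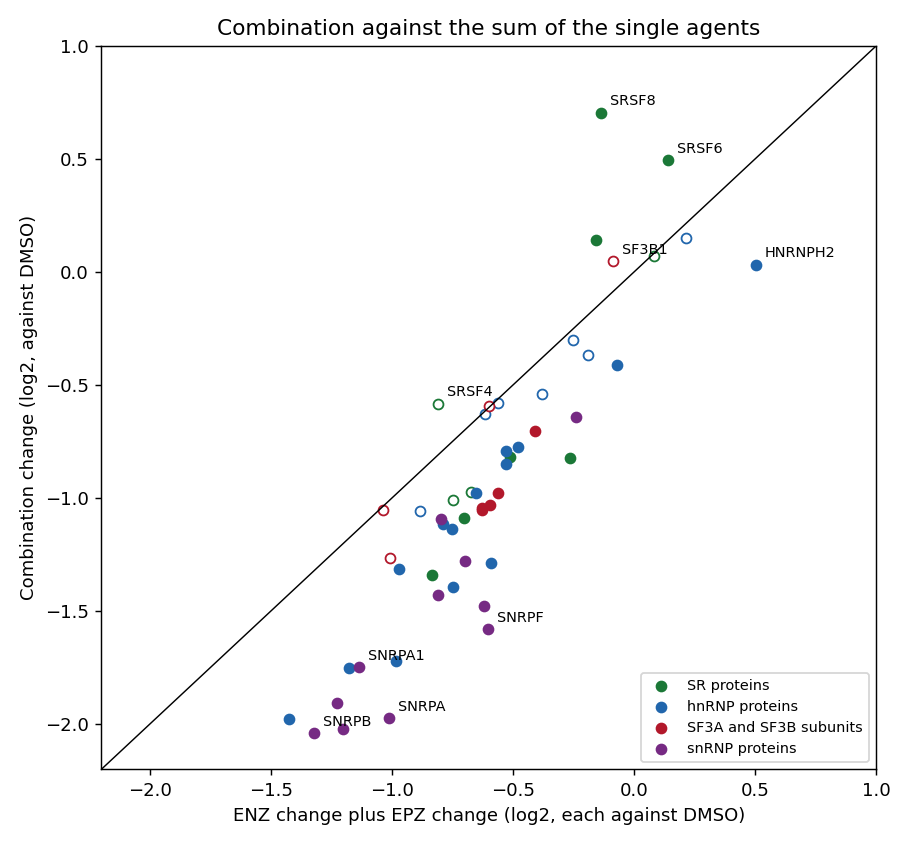
Combination change against DMSO (vertical axis, log2) and the sum of the ENZ and EPZ changes against DMSO (horizontal axis, log2) for the 52 tested genes, coloured by role, filled where the interaction has an adjusted p under 0.05. The line marks equality, and all changes share the same DMSO libraries. Most points lie below the line, SNRPA (-1.97) well below its sum of -1.01, while SRSF8 and SRSF6 lie above it.

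Related genes outside the symbol rule were counted from 4 lists. Of 72 other core spliceosome genes tested, 58 fell and 8 rose in Combination (median -0.55, or -0.38 and -0.36 under the other scalings), with 48 and 5 with EPZ and 31 and 8 with ENZ. The shares that fell were 80.6%, 66.7% and 43.1%, against 47.4%, 32.4% and 28.8% of all tested genes. Among all genes at 5 FPKM or more they were 58.2%, 40.0% and 37.5%, so the ENZ count was near that background. LSM4, part of the LSM ring of the U6 snRNP, fell by 0.63 in ENZ, 0.76 in EPZ and 2.13 in Combination, from a mean of 128 to 28.5 FPKM. The helicase DHX15, which takes spliceosomes apart, fell by 1.44 in Combination and TXNL4A, a small U5 protein, by 1.51. Of 14 tested genes that assemble snRNPs, 13 fell and none rose in Combination (median -0.80, with 12 lower and 1 higher by median-of-ratios scaling and a median of -0.53 by quantile normalization), among them PRMT5, the arginine methyltransferase of Sm proteins (-1.65), GEMIN4 (-1.70) and GEMIN6 (-1.73). SMN1 and SMN2, which are nearly identical, were under the filter.

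SR-related proteins and SR protein kinases went both ways, with 7 of 16 lower and 7 higher in Combination (median 0.03), or 6 and 9 with median-of-ratios scaling and 4 and 11 with quantile normalization. As deposited, 43.8% were lower and 43.8% higher, against 47.4% and 33.3% of all tested genes. SRPK1, the kinase that sends SR proteins to the nucleus, fell from a mean of 39.3 to 10.8 FPKM (-1.77), and TRA2B, a splicing activator, fell by 1.46. CLK1, the nuclear SR protein kinase, rose from 7.76 to 18.3 FPKM (1.14). Other RNA-binding splicing regulators had 22 of 32 lower and 8 higher (median -0.68). With median-of-ratios scaling 21 were lower and 9 higher (median -0.51), and with quantile normalization 15 and 8 (median -0.12). Lower ones as deposited include PTBP1 (-1.44), a repressor of exons, and PCBP1 (-1.42). CIRBP, a cold-inducible RNA-binding protein, rose from 60.5 to 194 FPKM (1.66). These values describe the lists, and no test of a list was made.

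Several measures moved with these groups. All 10 proliferation markers fell in Combination (median -3.27) and in EPZ (median -1.17), and 6 fell in ENZ (median -0.25, or 3 lower and 1 higher with a median of -0.016 under quantile normalization). MKI67, a marker of cycling cells, stood at means of 33.1, 37.3, 18.0 and 2.42 FPKM in DMSO, ENZ, EPZ and Combination. Summed FPKM over a library fell from 318599 and 314611 in DMSO to 218646 and 224223 in Combination, with 283211 and 276531 with ENZ and 288954 and 296532 with EPZ. The part of cycling and of the summed FPKM in the splicing-factor changes was not tested.

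For the identity of the cells, all 8 luminal markers had a mean of at least 55.2 FPKM, KLK3 being the highest. Their summed level moved with treatment, at 1653 to 1685 FPKM in DMSO, 883 to 887 with ENZ, 4009 to 4050 with EPZ and 986 to 1012 in Combination. None of the 3 basal and 4 immune markers reached 1 FPKM, and CD3E was at 0 in all libraries. Of 5 stromal markers only VIM and COL1A1 passed 1 FPKM, and the summed stromal level was 14.0 to 14.7 FPKM in DMSO and 35.1 to 35.9 in Combination, with DCN, LUM and COL3A1 all under 0.24. The part of luminal and stromal marker expression in the splicing-factor changes was not tested.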

How the data were processed

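RNA from 8 C4-2B libraries was sequenced on an Illumina instrument after NEBNext Ultra preparation, per the labels' protocols. The authors deposited FPKM per gene. STAR and hg38 are named in the submitters' processing notes. No counting tool, annotation or use of strand is given in the sources used here. Depth was estimated from the steps between low FPKM, using 590 single-transcript genes (55.4% of them within 5% of their median). It came to 15400000 to 24400000 fragments per library, with 1 fragment in a kilobase worth 0.041 to 0.0648 FPKM.

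Genes averaging 1 FPKM or more (11874) entered the fit as log2(FPKM + 1) of the deposited values, which understates changes of low genes. limma 3.58.1 in R 4.3.3 fitted the 4 groups with an expression trend (4 residual and 5.47 prior degrees of freedom). Tests are two-sided, with Benjamini-Hochberg adjustment over all genes in each of 6 comparisons and a threshold of 0.05. The fit was tested on simulated data in which few genes changed, in a single group. Far more genes were called here, so that test does not gauge false calls under a shift of many genes. Protein sequences were not analysed here. Positions come from GENCODE release 29, and figures were drawn with matplotlib 3.10.9 (numpy 2.4.6, pandas 2.3.3, Python 3.11.15).

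The members, the lists and the naming rule were chosen with earlier results of these data known. The rule names the 2 highest genes of each role, the 4 highest and 4 lowest called changes against DMSO, the 3 highest and 3 lowest against a single agent, the 4 smallest interaction p-values, and 3 genes per related list by smallest p. Pseudogene copies (24 genes have named ones) and exons overlapping on the same strand (9 genes) or the opposite strand (17) make levels uncertain. On the opposite strand these include HNRNPA2B1 (overlapped by CBX3), HNRNPK (AL354733.3), HNRNPD (AC124016.1), SRSF2 (MFSD11), SRSF9 (GATC) and SF3B2 (AP006287.2). On the same strand they include SRSF1 (AC015813.2). Alternatives tried were a pseudocount of 0.1, no filter, a mean of at least 5 FPKM, both scalings, only the compared groups, a replicate block, and leaving out each library.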

Additional observations from a re-analysis of the deposited data

Results flagged for a closer look

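The listed genes are those of the named set whose Combination change departed from the sum of the single-agent changes. The test was the limma interaction on the log2(FPKM + 1) scale, with an adjusted p under 0.05. Separate doses in Combination are not given, so an effect of an agent that changed with the other present cannot be told apart from a difference in dose. The named set was chosen from these same values, in part by the smallest interaction p-values, so the list is no independent support. Of all tested genes, 29.6% were lower and 9.99% higher in the interaction. Among the snRNP genes the interaction was -0.96 for SNRPA, -0.82 for SNRPD1, -0.72 for SNRPB, -0.68 for SNRPG, -0.62 for SNRPD2 and -0.61 for SNRPA1. Among the hnRNP genes it was -0.70 for HNRNPDL, -0.58 for HNRNPD, -0.55 for HNRNPAB, -0.47 for HNRNPH2, -0.34 for HNRNPH1 and -0.29 for HNRNPK. SF3B2 and SF3B5 were each at -0.42. The SR genes went both ways, with SRSF2 at -0.56 and SRSF8 at 0.84, SRSF6 at 0.35 and SRSF5 at 0.30. In HNRNPH1 the single agents had opposite signs, with 0.32 in ENZ and -0.39 in EPZ. For HNRNPH2 the level is close to the filter. Under median-of-ratios scaling HNRNPK and SF3B5 did not pass (adjusted p = 0.0974 and 0.0656), and under quantile normalization HNRNPK, SF3B5, HNRNPD and HNRNPH1 did not (adjusted p = 0.908, 0.144, 0.0502 and 0.348). HNRNPH2, SRSF5, HNRNPK, SF3B5 and SNRPG each lost the call when at least 1 of the libraries was left out, with adjusted p-values up to 0.0608, 0.108, 0.0598, 0.0653 and 0.0522.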

How the results depend on the processing

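Counts of splicing-factor genes past the threshold changed most with scaling. Quantile normalization gave 8 higher and 9 lower in ENZ, 0 higher in EPZ, 6 higher in Combination, 5 higher in Combination against ENZ, 9 higher and 28 lower against EPZ, and 6 higher and 20 lower in the interaction. With median-of-ratios scaling 6 were higher in Combination, 5 against ENZ, 8 against EPZ and 5 in the interaction. With a mean of at least 5 FPKM 0 were higher in EPZ, because HNRNPH2, the only gene higher there as deposited, has a mean of 1.16 FPKM and was not tested. Leaving out 1 library at a time gave 1 to 3 higher and 20 to 31 lower in ENZ, 0 to 1 and 39 to 41 in EPZ, 2 to 3 and 45 to 45 in Combination, 2 to 3 and 45 to 45 against ENZ, 3 to 4 and 37 to 43 against EPZ, and 2 to 4 and 23 to 37 in the interaction. The ENZ extremes of 1 and 20 came without the first DMSO library, and where a group is left with 1 library that library is assumed to vary like the others. Over all 52 genes and 6 comparisons (312 gene results, 4616 alternative values), 253 results passed as deposited. Of these, 171 held their call and direction under every alternative and 213 under every one but quantile normalization, which ended or turned 73. Median-of-ratios scaling ended 20, and leaving out some library ended 35. Of the 59 results that did not pass, 33 passed under some alternative. Quantile normalization changed the sign of 26 results that passed before or after it. In ENZ these were SRSF3 (0.071), SRSF4 (0.010), SRSF5 (0.20), SRSF7 (0.18), SF3B1 (0.17), HNRNPA1 (0.0018), HNRNPDL (0.025), HNRNPK (0.075), HNRNPL (0.037) and HNRNPU (0.11). In Combination they were HNRNPH1 (0.24), HNRNPH2 (-0.28) and HNRNPH3 (0.092). Against ENZ they were SRSF11 (0.38, and 0.14 with median-of-ratios scaling) and HNRNPA0 (0.047). Against EPZ they were HNRNPA0 (0.17), HNRNPA2B1 (0.071), HNRNPH1 (0.46), HNRNPK (0.086), HNRNPL (0.029), HNRNPU (0.0050), SF3A1 (0.15), SF3A2 (0.0025) and SRSF7 (0.045). In the interaction they were SRSF11 (0.25) and HNRNPK (0.011). The cause was not tested. Same-numbered libraries deviated together weakly (r = -0.015 to 0.109 across genes), so the numbers are taken as names only. The replicate block gave 2 higher and 32 lower in ENZ, 1 and 41 in EPZ, 2 and 45 in Combination, 3 and 45 against ENZ, 3 and 43 against EPZ, and 4 and 35 in the interaction. Depth limits HNRNPA1L2 and HNRNPH2, with an estimated 23 to 50 and 33 to 81 fragments per library.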

Other observations

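Within libraries, SRSF5 stood at 0.795 and 0.793 of the level of SRSF3 in DMSO and at 1.93 and 1.85 in Combination, and SNRPB2 at 0.612 and 0.603 of SNRPA1 in DMSO and 1.52 and 1.27 in Combination. SNRPB stood at 3.79 and 3.28 times SF3B1 in DMSO and at 0.835 and 0.798 in Combination. These pairs were chosen after their values were seen. Over the 52 tested genes, Spearman's rho between the Combination change and the mean level was -0.14, against -0.41 over all 11874 tested genes, and rho with exonic length was 0.27. These are correlations across genes that share libraries, and genes are not independent replicates.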
